A study of Mus musculus with 38 samples.

Results

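Colon libraries of the control diet group in the Apc set of a series on mice with colorectal cancer were compared with WT libraries of the same set, using those whose titles carry the letter F. The comparison holds 6 of the 38 RNA sequencing libraries of the series, 3 coded control diet and 3 coded WT, chosen by their titles and by the column names of the Apc count table. Control diet libraries (C, F) have the treatment label control and the set name Apc. WT libraries (F) have no treatment label and carry the same set name. The series design speaks of colorectal cancer mice given black rice or a control diet. The Apc allele, strain, age, diet of the WT mice, and whether tissue held tumour are not given in the sources used here, so genotype and diet cannot be told apart. The labels call the tissue intestinal tract and the table columns call it Colon. Nothing says that replicates were separate animals, so p-values measure a spread between libraries. In the main fit that spread was estimated over all 18 libraries of the Apc table, not over the 6 compared ones alone. The M-coded control diet and WT libraries (3 each) and the F-coded black rice libraries of the same table are used beside them where a value bears on the comparison.

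APC is a scaffold of the complex that marks beta-catenin for destruction, and its loss lets beta-catenin drive Wnt target genes such as Axin2 and Lgr5 in crypt stem cells. The colon wall also holds muscle layers with a network of enteric neurons and glia, a lamina propria rich in macrophages and plasma cells, and an epithelium with its own circadian clock. A bulk library sums all of these, and fewer cells of a type and less RNA per cell cannot be told apart in it.

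Total counts were 54.7, 45.5 and 44.8 M reads in control diet libraries, against 58.7, 48 and 51.5 M reads in WT libraries. The means, 48.3 and 52.7 M reads, differed with an exact permutation p of 0.4 (two-sided), where 3 against 3 libraries cannot give less than 0.1. Xist, transcribed from the inactive X chromosome, ranged from 1320 to 1690 CPM (counts scaled to depth with TMM factors) in control diet libraries and from 1130 to 1650 CPM in WT libraries, and 4 Y-linked genes summed to at most 0.363 CPM in any of the 6. Epcam, a surface protein of epithelium, stood between 922 and 1350 CPM on control diet and between 997 and 1240 CPM in WT, while Krt5 and Amy2a5, markers of squamous epithelium and pancreas, were at or near 0. Those 2 genes do not stand for their lists. Tested squamous genes summed to 4.9 to 9.13 CPM and pancreas genes to 36.4 to 172 CPM over the 6 libraries, with Cela1 at 22.6 to 160 CPM. Small intestinal enterocyte genes summed to 631 to 2200 CPM on control diet and 985 to 2100 CPM in WT.

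Control diet replicate 1 stood apart in Hox genes that mark the distal colon, while genes of the proximal colon varied in both groups. Hoxb13, a homeobox gene of the distal colon, was at 0.448, 182 and 170 CPM in control diet replicates 1 to 3, against 154, 261 and 91.7 CPM in WT replicates 1 to 3. Hoxd13, of the same kind, was at 0.224, 21.3 and 7.75 CPM on control diet and at 11.2, 38.7 and 13.9 CPM in WT. Car1, a carbonic anhydrase typical of the proximal colon, ranged from 387 to 12400 CPM on control diet and from 1080 to 11200 CPM in WT, so its level varied within both groups. The mean log2 CPM of the proximal colon genes was 6.78, 6.11 and 4.4 on control diet, against 6.28, 4.37 and 6.78 in WT. By these genes control diet replicate 3 and WT replicate 2 were the low libraries. Values without control diet replicate 1 are therefore given below for the neuron and glia, smooth muscle, Dbp-phase clock, cholesterol, macrophage, interferon and absorptive colonocyte groups, and the part of position in the results was not tested beyond that and a fit with proximal colon genes as a covariate.

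Across the 21624 genes tested with edgeR, 0 were higher and 0 were lower on control diet at an adjusted p under 0.05, and the adjusted p was 1 for every one of them. DESeq2 called 2 genes and limma-voom 0. With the threshold of 0.05 on the unadjusted p, 342 genes were higher (1.58% of those tested) and 531 were lower (2.46%) in edgeR, together 4.04%, where 5% would fall under that threshold if no gene differed. The higher count was 184 without control diet replicate 3 and 186 without WT replicate 3, and the lower count was 349 without WT replicate 3. All 3 control diet libraries lay above all 3 WT libraries for 1219 genes (5.64%) and below them for 1149 genes (5.31%). These shares are the background for the counts of group members in edgeR below, and where another fit is counted its own share stands beside it or in the closing section. The median log2 difference over all genes was 0.008. In simulated counts with this spread and depth, the test recovered 22.9% of genes changed by a log2 of 1, 62.1% of those changed by 2 and 81.6% of those changed by 3, so many differences of a doubling would be missed with 3 libraries a group. No gene named below passed the adjusted threshold in edgeR, and unadjusted p-values are given to rank them.

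**Figure D1:**
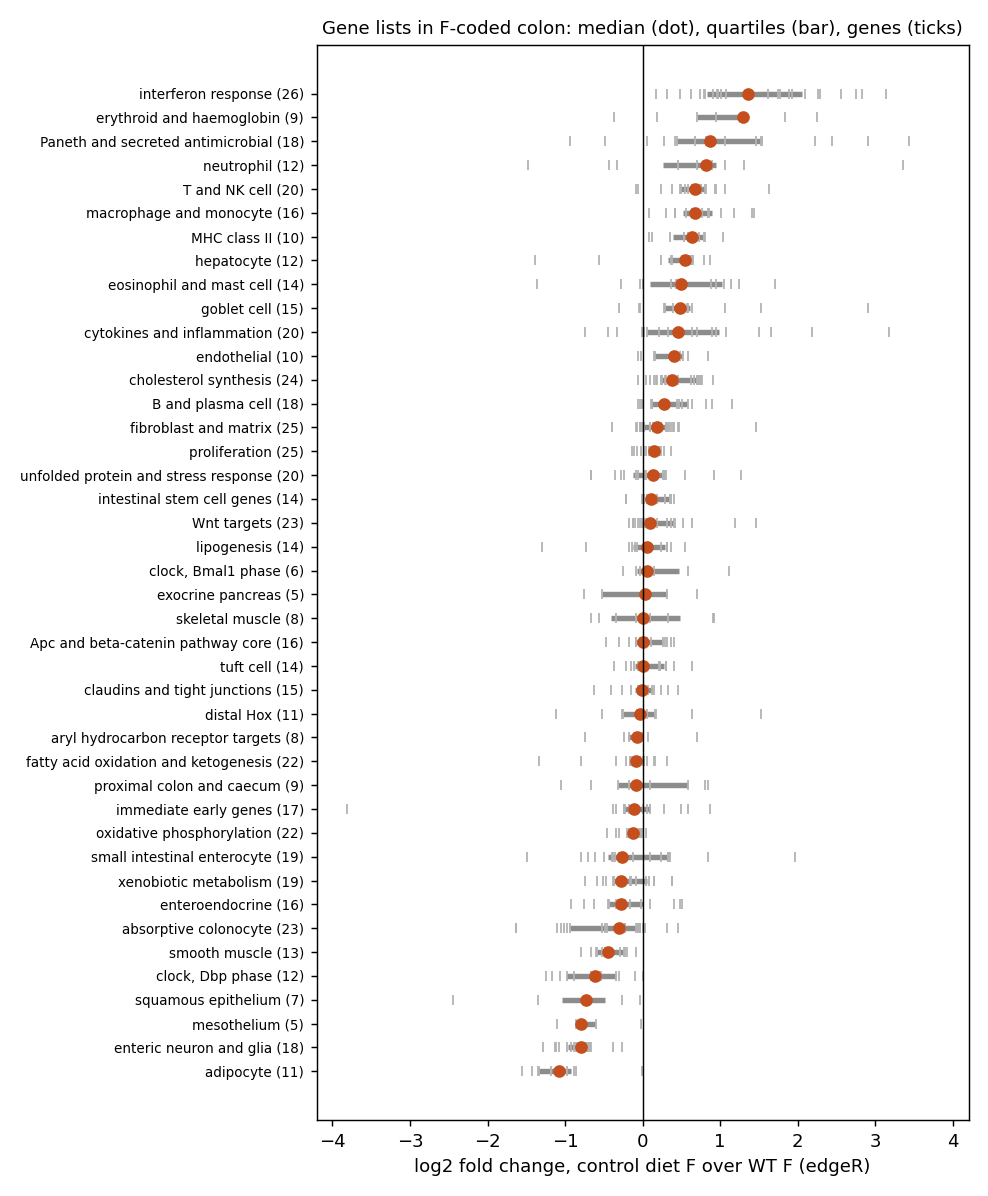
Log2 fold change of control diet F over WT F for the genes of each list with at least 5 members tested, one list a row with its number of tested genes. Dots are medians, bars the quartiles and ticks single genes; interferon response genes lie furthest right (median 1.36), and enteric neuron and glia genes lie left of 0 without exception (median -0.80).

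The Apc transcript and the Wnt program were examined first, since the set is named for that gene. Apc itself (ENSMUSG00000005871) was at 136, 126 and 136 CPM in control diet libraries, against 170, 120 and 120 CPM in WT libraries. The groups overlapped and the log2 difference was -0.04 (SE 0.20, edgeR unadjusted p = 0.83). A gene count does not show a point mutation or a truncation, so this value does not check the genotype. Ctnnb1, which encodes beta-catenin, averaged 461 ± 55 CPM on control diet and 465 ± 47.9 CPM in WT (SD, n = 3 each; log2 difference -0.01, SE 0.18).

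Among direct targets, Axin2, a negative-feedback scaffold of the pathway, was at 37.8, 47.5 and 43.1 CPM on control diet and at 28.5, 44.1 and 27.4 CPM in WT. The second WT library lay within the control diet range (log2 difference 0.36, SE 0.20, edgeR unadjusted p = 0.087). Ccnd1, the cyclin D1 gene, was at 70.6, 68.7 and 65.2 CPM on control diet, against 50, 50.1 and 30.9 CPM in WT, with no overlap (0.64, SE 0.34, unadjusted p = 0.075). Ephb2, a receptor that positions crypt cells, differed by 0.42 (SE 0.25, unadjusted p = 0.11) with overlapping groups. Of these 3 targets only Ccnd1 had separate groups. Lgr5, the receptor that marks crypt base stem cells, averaged 21.7 ± 5.61 CPM on control diet and 21.3 ± 6.3 CPM in WT (log2 difference 0.02, SE 0.28). Myc, a growth regulator and Wnt target, was at 29, 36.7 and 33.2 CPM on control diet, against 35.9, 38.5 and 37.5 CPM in WT (-0.18, SE 0.19, unadjusted p = 0.35).

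As a group, 16 of 23 Wnt targets had a higher mean on control diet, with a median log2 difference of 0.09, and 0 had an unadjusted p under 0.05 in edgeR, DESeq2 or limma-voom. In edgeR that count was 1 without control diet replicate 1, 2 without WT replicate 2 and 1 without WT replicate 3. Of 14 stem cell genes tested, 11 were on the higher side (median 0.11) and 0 reached that p. The 25 proliferation genes had a median of 0.15 with 0 at that p, and Mki67, the Ki-67 antigen of cycling cells, averaged 188 ± 45.2 CPM on control diet and 190 ± 72 CPM in WT. The proliferation list followed single WT libraries, its median being -0.11 without WT replicate 3, -0.04 without WT replicate 1 and 0.59 without WT replicate 2.

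Genes of the enteric nervous system had lower means on control diet. The mean was lower for 18 of 18 neuron and glia genes, 12 of them had an unadjusted p under 0.05 in edgeR, and for 12 all 3 control diet libraries lay below all 3 WT libraries. The median log2 difference was -0.80. Their summed level was 191, 167 and 137 CPM in control diet libraries, against 289, 231 and 341 CPM in WT libraries.

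Snap25 (ENSMUSG00000027273), part of the SNARE complex that fuses synaptic vesicles, was at 20.7, 16.7 and 13.7 CPM on control diet and at 38, 23.4 and 49.7 CPM in WT. Every control diet value lay below every WT value, and the log2 difference was -1.12 (SE 0.32, edgeR unadjusted p = 0.0032). Elavl4 (ENSMUSG00000028546), the neuronal RNA-binding protein HuD, was at 6.52, 6.09 and 5.05 CPM on control diet, against 12.6, 8.7 and 17.5 CPM in WT (-1.13, SE 0.33, unadjusted p = 0.0039). Prph, the intermediate filament peripherin of peripheral neurons, was at 16.3, 14.4 and 9.88 CPM on control diet and at 26.8, 19.7 and 33.4 CPM in WT (-0.98, SE 0.29, unadjusted p = 0.0042). For both genes the groups were again separate, and WT replicate 2 was the WT library nearest to the control diet range.

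Transmitter genes differed in how far they stood from WT. Nos1, which makes the nitric oxide of inhibitory motor neurons, had the most negative difference in the list, with 15.4, 9.5 and 10.5 CPM on control diet and 31.1, 20.7 and 34 CPM in WT (-1.28, SE 0.45, unadjusted p = 0.012). Tac1, the substance P precursor, averaged 13.3 ± 1.08 CPM on control diet and 22.3 ± 3.13 CPM in WT (-0.74, SE 0.29, unadjusted p = 0.022). Vip, the gene of vasoactive intestinal peptide, was at 34.7, 35.1 and 35.8 CPM on control diet, against 33.3, 52.5 and 41.4 CPM in WT, and had the smallest difference (-0.27, SE 0.22, unadjusted p = 0.25). Chat, which makes acetylcholine, overlapped between the groups (-0.68, SE 0.46, unadjusted p = 0.15). Nos1, Tac1, Vip, Chat and the glial genes of the next sentences were picked after their values were seen.

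The glial members were also lower on average, with S100b at 4.78, 4.6 and 2.09 CPM on control diet and at 7.88, 5.01 and 8.19 CPM in WT (-0.88, SE 0.31, unadjusted p = 0.012). Sox10 and Gfap, of glial identity and structure, overlapped between the groups, with log2 differences of -0.38 and -0.70.

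The 10 lower genes with the smallest p held 0 members of the neuron and glia list. They were Nr1d2, Per1 and Ciart, given with the clock genes below, and the 7 genes that follow, whose roles differ and which were not tested as a group. Adcyap1r1 (ENSMUSG00000029778), the receptor of the neuropeptide PACAP, was at 5.04, 5.59 and 5.17 CPM on control diet, against 10.4, 7.81 and 9.14 CPM in WT. The groups were far apart relative to their spread (log2 difference -0.79, SE 0.17, edgeR unadjusted p = 0.00035), and DESeq2 called it (-0.80, adjusted p = 0.034). Astn1, astrotactin of migrating neurons, was at 5.14, 4.2 and 3.8 CPM on control diet and at 10.6, 8.63 and 11.7 CPM in WT (-1.24, SE 0.30, unadjusted p = 0.00074). Kif5c, a neuronal kinesin motor, averaged 6.39 ± 0.0935 CPM on control diet and 10.8 ± 1.31 CPM in WT (-0.76, SE 0.19, unadjusted p = 0.0011). Rab3c, a small GTPase of secretory vesicles, averaged 9.06 ± 0.778 CPM on control diet and 18 ± 4.05 CPM in WT (-0.99, SE 0.25, unadjusted p = 0.0011). In each of Astn1, Kif5c and Rab3c every control diet library lay below every WT library. Add2, the beta subunit of the membrane skeleton protein adducin, and Dmtn, the actin-bundling protein dematin, differed by -1.20 (SE 0.29) and -0.80 (SE 0.19). Fam171b, a membrane protein, differed by -0.71 (SE 0.17), and for all 3 of these the groups did not overlap. Scg2, secretogranin 2 of secretory granules in neurons and endocrine cells, was the enteroendocrine list's member with the smallest p (-0.92, SE 0.31, unadjusted p = 0.0099), while the 16 genes of that list had a median of -0.28 and 1 at that p.

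**Figure D2:**
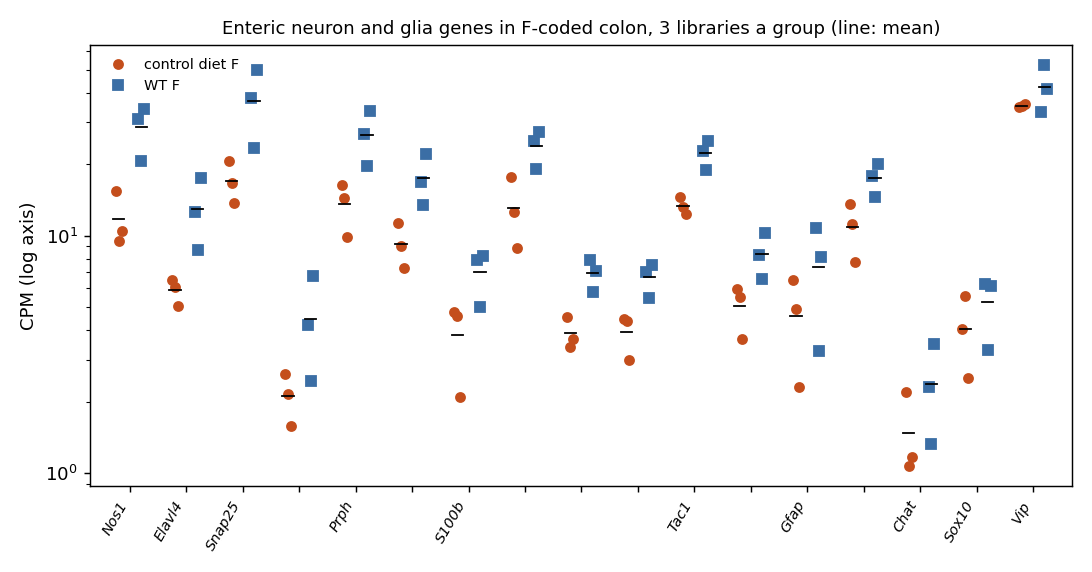
Level in each F library of 17 of the 18 enteric neuron and glia genes, in CPM on a log axis, ordered by log2 difference and labelled where the text names the gene. Circles are the 3 control diet libraries, squares the 3 WT libraries and lines their means; for 12 genes all circles lie below all squares, and Vip at the right end has the groups closest.

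Within the table WT F replicates 1 and 3 were the high libraries for the neuron and glia list. Across the 18 libraries of the table, the mean log2 CPM of the neuron and glia list was 3.02, 2.81 and 2.39 in control diet F libraries, against 3.64, 3.12 and 3.87 in WT F libraries. WT replicates 3 and 1 ranked first and second highest of all 18. Black rice F replicates 1 to 3 were at 3.51, 2.71 and 3.12, so that WT F replicate 2 lay within their range. The M-coded libraries lay at 2.67, 2.65 and 2.87 on control diet and at 2.4, 3 and 2.71 in WT, within the range of the control diet F libraries. The median log2 difference of the list was -0.08 in the M comparison, and 4 of 18 genes had an unadjusted p under 0.05 for the F minus M difference, all lower in F (1.53% of all genes were, and 2.85% had such a p in either direction). Without WT replicate 3 the count at that p was 7 of 18 and the median -0.66, and without control diet replicate 1 the count was 13 and the median -1.06. The black rice F libraries, set against the same 3 WT libraries, had a median of -0.45.

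Smooth muscle, adipocyte and mesothelial genes also had lower means on control diet, with overlap between single libraries in part of them and 0 genes at an unadjusted p under 0.05 in edgeR. Smooth muscle genes were lower on average for 13 of 13, with a median of -0.45, 6 genes without overlap and 0 at that p (1 in DESeq2, where 3% of all genes were lower at that p, and 0 in limma-voom, where 2.52% were). Their sum was 3500, 3260 and 3300 CPM on control diet, against 5810, 4690 and 3880 CPM in WT. Cnn1, calponin of contractile smooth muscle, was at 261, 288 and 352 CPM on control diet and at 523, 658 and 373 CPM in WT (-0.79, SE 0.38, unadjusted p = 0.058). Myh11, the smooth muscle myosin heavy chain, was at 1070, 968 and 896 CPM on control diet, against 1930, 1120 and 1160 CPM in WT, with WT replicate 1 far above the other libraries (-0.52, SE 0.28, unadjusted p = 0.078). Hspb6, a small heat shock protein of muscle, differed by -0.59 (SE 0.31, unadjusted p = 0.074). The list's median was -0.22 without WT replicate 1 and -0.45 without control diet replicate 1, with 0 genes at that p in both. Of 4 genes of interstitial cells of Cajal, 3 were lower and 1 was higher (median -0.16, 0 at that p). Their mean log2 CPM overlapped, at 4.95, 5.27 and 5.42 on control diet and 5.54, 5.39 and 5.05 in WT.

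With the smooth muscle level as a covariate, the neuron and glia median was -0.61. With the neuron and glia level as a covariate, the smooth muscle median was 0.00 and Myh11 differed by 0.00. Adipocyte genes were lower on average for 11 of 11 (median -1.08, 0 at an unadjusted p under 0.05), with sums of 503, 232 and 127 CPM on control diet and 619, 132 and 858 CPM in WT, so that WT replicate 2 lay below 2 of the control diet libraries. Mesothelial genes were lower for 5 of 5 (median -0.80, 0 at that p). Their mean log2 CPM overlapped, at 2.35, 2.01 and 1.63 on control diet and 1.36, 3.13 and 3.1 in WT. Their sums were 1370 to 2050 CPM on control diet and 1460 to 1820 CPM in WT. Those sums rest on the abundant members, since others stood at a few CPM or less, so they cannot check the median. In M libraries the list medians were -0.22 (smooth muscle, 13 of 13 lower), 1.30 (adipocyte, 9 of 11 higher) and -0.91 (mesothelium, 3 of 5 lower). How much muscle layer, mesentery or serosa each piece of tissue held is not given, and its part in the neuronal difference was not tested. Both covariates are list means of the same libraries and did not overlap between the groups, so the fits with them cannot decide it.

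Clock genes gave the smallest p of all. In the core clock, BMAL1 and CLOCK bind E-boxes (CACGTG) and switch on Per, Nr1d1, Nr1d2, Ciart, Dbp, Tef and Hlf, whose products then repress the cycle or pass the rhythm to output genes, so that these transcripts peak together and Arntl, the gene of BMAL1, peaks in the opposite phase. Of 12 genes that peak with Dbp, 11 had a lower mean on control diet and the mean of Tspan4 was level (0.00). The median log2 difference was -0.61, 8 had an unadjusted p under 0.05 in edgeR, and for 7 the groups did not overlap.

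Nr1d2 (ENSMUSG00000021775), which encodes the nuclear receptor REV-ERB beta, a repressor of Arntl, was at 63.8, 73 and 90.6 CPM on control diet, against 141, 162 and 142 CPM in WT. The highest control diet library stood well below the lowest WT library, and the log2 difference of -0.97 (SE 0.20, edgeR unadjusted p = 0.0002) had the smallest p of all genes tested. Per1 (ENSMUSG00000020893), a repressor of CLOCK and BMAL1, was at 29.5, 20 and 38.9 CPM on control diet and at 66.9, 53 and 44.3 CPM in WT (-0.89, SE 0.22, unadjusted p = 0.00098). Ciart (ENSMUSG00000038550), a repressor bound to the same complex, was at 4.02, 2.3 and 5.38 CPM on control diet, against 10.6, 10.6 and 6.66 CPM in WT (-1.25, SE 0.32, unadjusted p = 0.0013). Control diet replicate 3 came closest to WT for all 3 genes, and the groups did not overlap for any of them.

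Nr1d1, the gene of REV-ERB alpha, was at 15.7, 10.2 and 18.1 CPM on control diet and at 31.7, 44.8 and 22.4 CPM in WT (-1.17, SE 0.33, unadjusted p = 0.0029). Its last exon overlaps Thra on the other strand, and strand use in the counting is not given, so their reads cannot be fully separated. Dbp, an activator of output genes, was at 8.27, 9.6 and 14.1 CPM on control diet, against 20.7, 30.5 and 15.6 CPM in WT (-1.06, SE 0.36, unadjusted p = 0.01). Its relative Hlf averaged 10.3 ± 2.73 CPM on control diet and 16.3 ± 2.37 CPM in WT (-0.66, SE 0.19, unadjusted p = 0.0036), and Tef, another of that family, averaged 93.4 ± 22.1 CPM on control diet and 137 ± 19.1 CPM in WT (-0.56, SE 0.22, unadjusted p = 0.023). Dbp and Hlf had no overlap, while for Tef control diet replicate 3 (118 CPM) lay just above WT replicate 3 (117 CPM). Per2 and Per3, the other Period genes, overlapped between the groups, with differences of -0.31 and -0.35 (SE 0.31 and 0.33). Dbp, Nr1d1, Hlf, Tef, Per2 and Per3 were picked after their values were seen.

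**Figure D3:**
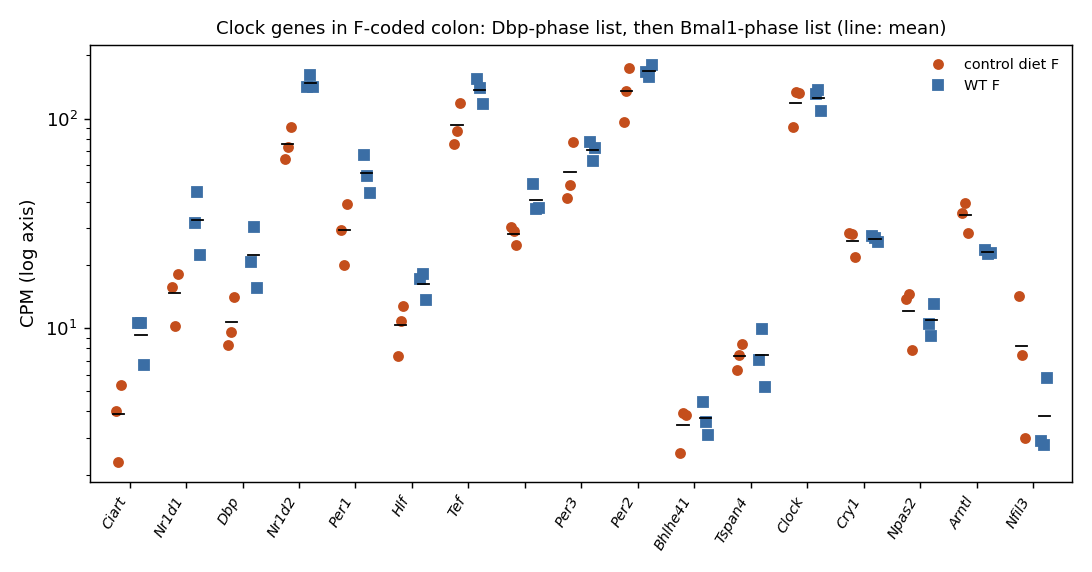
Level of clock genes in each F library, in CPM on a log axis, with the 12 Dbp-phase genes first and 5 of the 6 Bmal1-phase genes after them, labelled where the text names the gene. Circles are control diet libraries, squares WT libraries and lines means; from Ciart to Hlf every circle lies below every square, and Arntl shows the opposite order.

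Genes of the opposite phase shared no direction. The 6 genes tested had a median of 0.05 with 0 at an unadjusted p under 0.05. Arntl (ENSMUSG00000055116) was at 35.6, 39.7 and 28.4 CPM on control diet, against 23.6, 22.6 and 22.9 CPM in WT, higher without overlap (0.58, SE 0.40, unadjusted p = 0.17). Nfil3, a repressor of Dbp target genes, was at 14.2, 7.4 and 2.99 CPM on control diet and at 2.88, 2.77 and 5.76 CPM in WT (1.11, SE 0.56, unadjusted p = 0.068). Clock, Cry1 and Npas2, picked after their values were seen, differed by -0.08, -0.03 and 0.14.

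The M libraries had a like order for the Dbp-phase genes, with a median of -0.54 and 7 of 12 lower at an unadjusted p under 0.05 (1.43% of all genes). For the F minus M difference, 0 of the 12 had such a p. Bmal1-phase genes in M libraries had a median of 0.62 with 4 of 6 higher at that p (1.9% of all genes). The black rice F libraries, set against the same 3 WT F libraries, had a Dbp-phase median of -0.17 with 2 of 12 higher. There Nr1d2, Per1 and Ciart differed by -0.01, -0.23 and -1.15. In the F comparison the Dbp-phase median was -0.53 without control diet replicate 1 (7 genes at that p), -0.62 with proximal colon genes as a covariate and -0.99 with neuron and glia genes as a covariate. The hour at which tissue was collected is not given for either group.

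The E-box stands in promoters of genes that carry this result, and 3 of them are shown as RefSeq windows of the GRCm38.p6 build, from 250 bases before to 50 after the start, read 5′ to 3′ on the gene's strand, with each CACGTG in capitals. They lie at chr3:95882179-95882478 (minus strand, 3 matches), chr11:69098699-69098998 (plus strand, 1 match) and chr15:81802423-81802722 (plus strand, 1 match).
Ciart: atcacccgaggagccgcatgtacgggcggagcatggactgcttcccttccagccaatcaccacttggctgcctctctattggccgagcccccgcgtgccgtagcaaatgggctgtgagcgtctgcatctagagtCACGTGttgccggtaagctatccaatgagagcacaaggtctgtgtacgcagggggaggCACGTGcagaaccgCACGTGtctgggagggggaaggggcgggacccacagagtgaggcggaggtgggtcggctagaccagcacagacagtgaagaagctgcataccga
Per1: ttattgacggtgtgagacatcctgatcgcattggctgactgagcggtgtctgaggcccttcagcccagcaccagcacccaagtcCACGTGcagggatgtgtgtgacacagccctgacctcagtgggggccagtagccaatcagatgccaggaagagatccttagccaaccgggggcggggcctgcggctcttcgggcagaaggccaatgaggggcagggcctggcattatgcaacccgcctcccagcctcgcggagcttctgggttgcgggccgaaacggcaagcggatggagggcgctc
Tef: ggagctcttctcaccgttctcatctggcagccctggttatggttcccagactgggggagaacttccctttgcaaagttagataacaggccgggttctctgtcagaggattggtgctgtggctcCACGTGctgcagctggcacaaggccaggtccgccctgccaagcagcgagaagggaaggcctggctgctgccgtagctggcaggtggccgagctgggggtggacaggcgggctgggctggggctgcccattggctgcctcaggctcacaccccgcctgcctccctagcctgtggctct

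An E-box, which reads the same on both strands, was found in 7.15% of all 32851 windows and in 8.09% of the 27025 genes that have any. Of the 12 Dbp-phase genes 11 had a window, and 5 of them held the motif. Besides the 3 shown these were Bhlhe41 and Tspan4, whose levels differed by -0.10 and 0.00, so a match in this window did not go with a difference in these 2 genes. Nr1d2, Nr1d1, Dbp and Hlf had no match in the windows at hand.

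Genes of cholesterol synthesis and uptake were higher on control diet in F libraries and lower in M libraries. These genes are switched on together by the transcription factor SREBP2 when sterols in the cell run low. In F libraries 23 of 24 had a higher mean on control diet, with a median log2 difference of 0.38, 4 with an unadjusted p under 0.05 in edgeR and 11 without overlap. Their sum was 2240, 1860 and 2190 CPM on control diet, against 1520, 1780 and 1310 CPM in WT.

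Fdft1 (ENSMUSG00000021273), squalene synthase, was at 138, 106 and 133 CPM on control diet, against 71.3, 85.2 and 67.2 CPM in WT (log2 difference 0.75, SE 0.33, edgeR unadjusted p = 0.037). The groups were separate, and WT replicate 2 was the highest WT library. Hsd17b7, an enzyme of a late step, averaged 19.7 ± 0.315 CPM on control diet and 12.1 ± 2.54 CPM in WT (0.70, SE 0.32, unadjusted p = 0.044). Late-step enzymes Ebp, Dhcr7 and Sc5d, picked after their values were seen, were nearly level, at -0.06, 0.04 and 0.10.

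In M libraries the same 24 genes had a median of -0.86, 24 of 24 lower and 18 with an unadjusted p under 0.05. The median F minus M difference was 1.57, and 20 of 24 had an unadjusted p under 0.05 for it, all higher in F (1.32% of all genes were). Lss, lanosterol synthase, was at 59.7, 52.1 and 65.2 CPM in control diet F libraries, against 36.3, 40.3 and 35.4 CPM in WT F libraries. In M libraries it was at 16.9, 20.9 and 19.7 CPM on control diet and at 36.7, 68 and 85.6 CPM in WT. The order of the groups was opposite in the 2 sex codes without overlap in either, and the F minus M difference was 2.39 (SE 0.47, edgeR unadjusted p = 0.00012, adjusted p = 1; DESeq2 adjusted p = 0.012). For Fdft1 the difference was 2.09 (SE 0.47, edgeR unadjusted p = 0.00043; DESeq2 adjusted p = 0.047).

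Depp1 and Mchr1 were also named by the rule on the smallest p for the F minus M difference. Depp1, a target of FOXO factors that rises in fasting, was at 4.93, 3.03 and 1.94 CPM in control diet F libraries, against 4.15, 4.64 and 7.91 CPM in WT F libraries, and at 27.1, 16.3 and 12.6 CPM in control diet M libraries, against 3.99, 3.16 and 2.55 CPM in WT M libraries. The 3 control diet M libraries were the high ones (F minus M difference -3.28, SE 0.60, edgeR unadjusted p = 5.8e-05; DESeq2 adjusted p = 7e-04). Mchr1, a receptor of melanin-concentrating hormone, had a difference of -1.57 (SE 0.36, edgeR unadjusted p = 0.00054; DESeq2 adjusted p = 0.039). The feeding state at collection is not given.

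**Figure D4:**
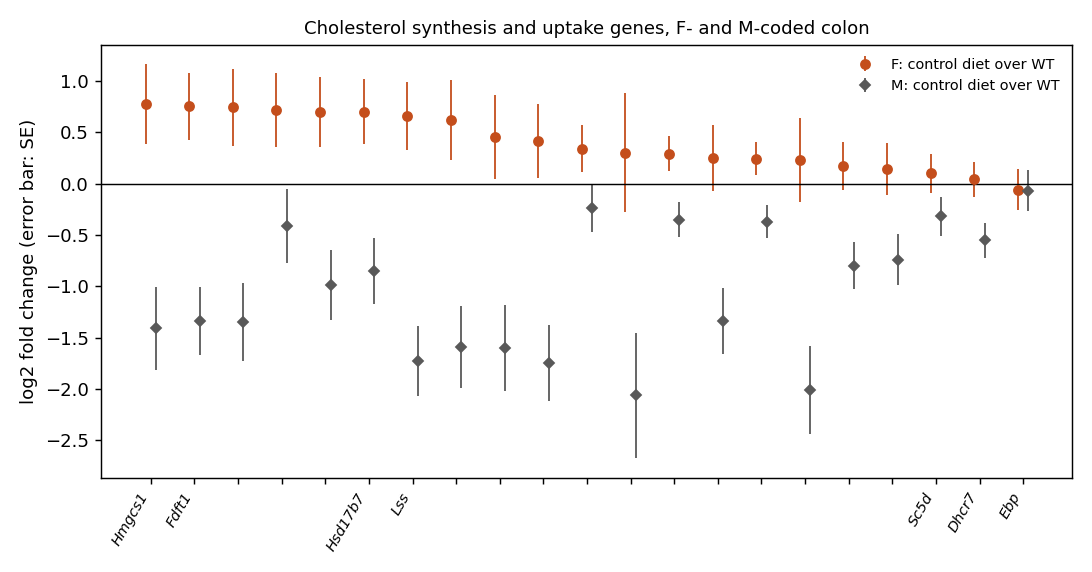
Log2 fold change of control diet over WT for 21 of the 24 cholesterol genes, in F libraries (circles) and M libraries (diamonds), with SE bars and labels where the text names the gene. All but Ebp lie above 0 in F, all lie below 0 in M, and the order on the axis follows the F values.

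The count of 4 genes in F libraries depended on single libraries. It was 2 without control diet replicate 1 or 3 and 1 without WT replicate 3, with medians of 0.33, 0.33 and 0.30, and the median was 0.62 without WT replicate 2. With neuron and glia genes as a covariate the count was 0 and the median 0.29. Black rice F libraries, against the same WT libraries, had a median of -0.25 with 1 of 24 higher. Lipogenic genes, which SREBP1 drives, had a median of 0.05 over 14 genes and 0 at an unadjusted p under 0.05.

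A sterol regulatory element, the motif that SREBP2 binds, is shown in the RefSeq window of Hmgcs1, HMG-CoA synthase, at chr13:119690101-119690400 of GRCm38.p6 (plus strand), with TCACCCCAC in capitals. Hmgcs1, chosen for this match, was at 264, 220 and 276 CPM on control diet, against 161, 159 and 125 CPM in WT (0.77, SE 0.39, unadjusted p = 0.065).
Hmgcs1: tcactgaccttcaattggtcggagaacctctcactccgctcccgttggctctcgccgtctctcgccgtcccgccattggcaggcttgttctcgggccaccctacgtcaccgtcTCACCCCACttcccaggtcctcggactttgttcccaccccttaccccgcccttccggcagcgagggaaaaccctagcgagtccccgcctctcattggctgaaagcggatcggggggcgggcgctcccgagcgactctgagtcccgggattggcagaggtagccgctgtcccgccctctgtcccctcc

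These letters, searched on both strands, stood in 0.551% of all windows and in 0.614% of the genes that have any. Of the 24 genes 16 had a window, and Hmgcs1 was the 1 with a match to this exact form.

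Macrophage and monocyte genes were higher on control diet for 16 of 16, with a median log2 difference of 0.67, 6 with an unadjusted p under 0.05 in edgeR and 9 without overlap. Colon macrophages are renewed from blood monocytes that enter through the chemokine receptor CCR2. The summed level was 1330, 1110 and 1640 CPM on control diet, against 954, 1110 and 901 CPM in WT.

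Cx3cr1 (ENSMUSG00000052336), the fractalkine receptor of resident gut macrophages, was at 17.7, 12.1 and 17.4 CPM on control diet, against 8.48, 9.48 and 5.38 CPM in WT (1.01, SE 0.35, unadjusted p = 0.011). Ccr2 (ENSMUSG00000049103) was at 17.2, 9.02 and 19 CPM on control diet and at 7.47, 4.62 and 4.63 CPM in WT (1.43, SE 0.53, unadjusted p = 0.016). Adgre1, the F4/80 antigen of macrophages, was at 18.8, 14.4 and 13 CPM on control diet, against 6.56, 9.21 and 4.55 CPM in WT (1.18, SE 0.50, unadjusted p = 0.032). For each of the 3 genes every control diet library lay above every WT library, and control diet replicate 2 was the lowest of its group for Cx3cr1 and Ccr2. The complement genes C1qb and C1qc, made by tissue macrophages, had differences of 0.76 (SE 0.35, unadjusted p = 0.045) and 0.84 (SE 0.37, unadjusted p = 0.037). Ly6c2, a monocyte surface gene whose reads cannot be fully separated from those of Ly6c1, was at 25.7, 17.2 and 70.1 CPM on control diet and at 20.6, 17.7 and 4.15 CPM in WT, with overlap. Cd14, the co-receptor of lipopolysaccharide, was nearly level (0.08, SE 0.34). C1qb, C1qc, Ly6c2 and Cd14 were picked after their values were seen.

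Ms4a7, a membrane protein of macrophages outside that list, was among the 10 higher genes with the smallest p, at 19.7, 13.5 and 15.1 CPM on control diet against 7.2, 8.84 and 6.89 CPM in WT (1.08, SE 0.34, unadjusted p = 0.0067). Milr1, the allergin-1 receptor of mast and myeloid cells, averaged 3.5 ± 0.122 CPM on control diet and 2.03 ± 0.144 CPM in WT (0.79, SE 0.23, unadjusted p = 0.0041). The count of 6 macrophage genes was 3 without control diet replicate 1 (median 0.56), 3 without control diet replicate 3, 3 without WT replicate 1 and 1 without WT replicate 3, and 0 with either the smooth muscle or the neuron and glia level as a covariate (medians 0.43 and 0.33). In M libraries the list had a median of -0.01 with 8 of 16 higher, and 1 gene had an unadjusted p under 0.05 for the F minus M difference.

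Other leukocyte lists leaned the same way. T and NK cell genes were higher on average for 18 of 20 (median 0.68), with 1 at an unadjusted p under 0.05, the co-stimulatory receptor Cd28, which was at 5.79, 4.22 and 11 CPM on control diet and at 4.1, 4.1 and 2.74 CPM in WT (0.94, SE 0.37, unadjusted p = 0.021). Class II MHC genes, which present antigen to CD4 T cells, were higher for 10 of 10 (median 0.63), with 0 at that p. Of 12 neutrophil genes 9 were higher (median 0.81), among them Csf3r, the G-CSF receptor, at 4.86, 2.78 and 4.64 CPM on control diet against 1.56, 1.99 and 1.39 CPM in WT (1.31, SE 0.51, unadjusted p = 0.022). Differences in the neutrophil list ran from -1.48 to 3.35, with 2 genes wholly above WT and 1 wholly below it. Its level was low, with a mean log2 CPM of -1.21, -0.22 and -0.26 on control diet and -0.92, -0.76 and -1.68 in WT. The summed neutrophil level did not follow, at 14.3, 69.9 and 68 CPM on control diet and 76.2, 187 and 78.4 CPM in WT. B and plasma cell genes had a median of 0.28 over 18 genes with 0 at that p. In M libraries T and NK cell genes were higher for 19 of 20 (median 0.45) and neutrophil genes for 8 of 12 (median 0.81). B and plasma cell genes were higher there for 11 of 18 (median 0.58) and class II MHC genes for 5 of 10 (median 0.00).

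Interferon response genes had the highest median of all lists. Interferons act through a complex that holds STAT2 and IRF9 and binds response elements of antiviral genes. Of 26 genes 26 were higher on average on control diet, with a median log2 difference of 1.36, 17 without overlap and 5, described next, with an unadjusted p under 0.05 in edgeR. Their sum was 2280, 917 and 848 CPM on control diet, against 797, 491 and 522 CPM in WT.

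Ifit2 (ENSMUSG00000045932), an antiviral RNA-binding protein, was at 119, 47.5 and 20.4 CPM on control diet, against 13.4, 8.88 and 5.38 CPM in WT (2.75, SE 0.96, unadjusted p = 0.012). Ifi44, another induced gene, was at 69.9, 22.5 and 14.3 CPM on control diet and at 7.24, 2.8 and 2.03 CPM in WT (3.14, SE 1.20, unadjusted p = 0.019). Cxcl9, a chemokine induced by interferon gamma, was at 46.2, 6.86 and 19.4 CPM on control diet, against 5.1, 2.69 and 2.38 CPM in WT (2.83, SE 1.28, unadjusted p = 0.042). In each case control diet replicate 1 was more than double the other control diet libraries. Stat2 was at 123, 62.9 and 70.3 CPM on control diet and at 49.1, 36.9 and 40.7 CPM in WT (1.01, SE 0.47, unadjusted p = 0.047), and Bst2, the tetherin that holds virions at the membrane, was at 36, 16.9 and 21.5 CPM on control diet, against 12.3, 16 and 10 CPM in WT (0.96, SE 0.43, unadjusted p = 0.043). Ifit1 and Ifit3, members of a family whose reads may be split between near copies, overlapped between the groups, with differences of 1.62 and 1.37. Stat2, Bst2, Ifit1 and Ifit3 were picked after their values were seen.

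Without control diet replicate 1 the interferon median was 0.73 and 0 genes had an unadjusted p under 0.05. The count was 8 without control diet replicate 2, 2 without WT replicate 2 and 1 without WT replicate 3. It was also tool-dependent, with 11 of 26 genes in DESeq2, where 1.89% of all genes were higher at that p, and 1 in limma-voom, where 1.61% were. In M libraries the median was -0.21 with 3 of 26 higher, and 2 genes had an unadjusted p under 0.05 for the F minus M difference. The black rice F libraries stood above the same WT libraries by a median of 1.90. Levels varied widely inside most groups of the table, from 3.36 to 6.19 mean log2 CPM in black rice F and from 2.84 to 4.65 in control diet M libraries.

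Control diet replicate 1 was also the high library for secreted lectins. Reg3g, an antibacterial lectin whose reads may be shared with its near copy Reg3b, was at 193, 15.9 and 4.31 CPM on control diet, against 6.32, 5.88 and 7.63 CPM in WT. The log2 difference was 3.43 (SE 1.38, unadjusted p = 0.025) with that library and 0.61 (unadjusted p = 0.62) without it.

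Windows of Stat2 and Bst2 show the core of the interferon-stimulated response element, 2 repeats of GAAA with 2 bases of any kind between them, in capitals on either strand, at chr10:128270248-128270547 (plus strand, 1 match) and chr8:71537423-71537722 (minus strand, 2 matches) of GRCm38.p6.
Stat2: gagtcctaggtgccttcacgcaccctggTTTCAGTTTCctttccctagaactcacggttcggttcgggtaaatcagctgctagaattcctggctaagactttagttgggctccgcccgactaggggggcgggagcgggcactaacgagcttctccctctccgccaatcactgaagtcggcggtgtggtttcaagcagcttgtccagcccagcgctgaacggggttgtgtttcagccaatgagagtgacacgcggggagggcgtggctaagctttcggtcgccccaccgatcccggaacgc
Bst2: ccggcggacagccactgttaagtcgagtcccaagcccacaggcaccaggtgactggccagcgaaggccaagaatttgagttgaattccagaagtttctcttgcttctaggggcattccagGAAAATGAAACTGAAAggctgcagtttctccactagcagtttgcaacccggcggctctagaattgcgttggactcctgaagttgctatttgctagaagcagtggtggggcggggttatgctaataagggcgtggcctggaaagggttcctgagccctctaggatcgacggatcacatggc

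This motif was found in 3.44% of all windows on either strand and in 3.99% of the genes that have any. Of the 26 interferon genes 20 had a window, and 14 of these held it. Stat2 and Bst2 are shown because their windows held a match. Ifit2, Ifi44 and Cxcl9 had no match in the windows at hand.

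**Figure D5:**
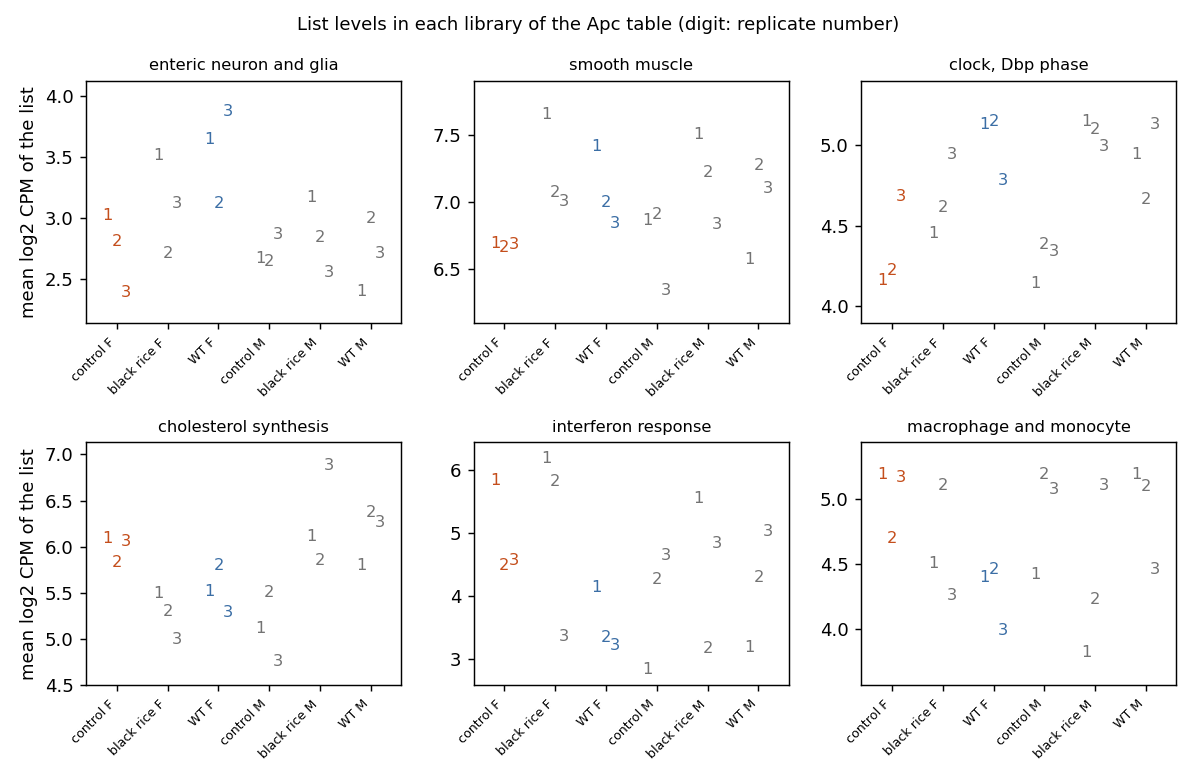
Mean log2 CPM of 6 gene lists in each of the 18 libraries of the Apc table, one panel a list, groups along the axis and digits giving the replicate number. Control diet F is orange and WT F blue; WT F replicates 1 and 3 top the neuron panel, and control diet F replicate 1 stands above its group in the interferon panel.

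Among stromal and vascular genes, Lox (ENSMUSG00000024529), the lysyl oxidase that cross-links collagen, was at 5.42, 2.78 and 2.35 CPM on control diet, against 1.63, 1.06 and 1.13 CPM in WT. The groups did not overlap and the log2 difference was 1.46 (SE 0.37, edgeR unadjusted p = 0.0011), or 1.01 (unadjusted p = 0.012) without control diet replicate 1. In M libraries Lox differed by 1.67 (unadjusted p = 0.00035). The other 24 genes of the fibroblast and matrix list did not reach an unadjusted p under 0.05, and the list's median was 0.18. Pdgfrb, the PDGF receptor of pericytes and fibroblasts, averaged 28.8 ± 3.47 CPM on control diet and 19.8 ± 4.23 CPM in WT (0.54, SE 0.17, unadjusted p = 0.0053). Spon2, a secreted matrix protein, was at 16.9, 14.2 and 7.83 CPM on control diet and at 5.55, 8.18 and 5.01 CPM in WT (1.06, SE 0.29, unadjusted p = 0.0024), with overlap at control diet replicate 3. Lrrc32, the surface anchor of latent TGF-beta, averaged 11.9 ± 1.44 CPM on control diet and 5.71 ± 1.52 CPM in WT (1.05, SE 0.29, unadjusted p = 0.0026). Of these 3 genes Pdgfrb and Lrrc32 had separate groups. Adam19, a membrane metalloprotease, and Sept4, a septin of the cytoskeleton, differed by 0.85 (SE 0.27) and 0.70 (SE 0.17) without overlap. In M libraries Pdgfrb, Spon2, Lrrc32, Adam19 and Sept4 differed by 0.05, 0.20, 0.48, 0.25 and 0.35, each with an edgeR unadjusted p of 0.053 or more. WT F replicate 3 had the lowest mean level of the fibroblast and matrix list among the 18 libraries.

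A pair of endothelial genes stood higher as well. Sox18, a transcription factor of vessel formation, was at 7.3, 8.09 and 7.07 CPM on control diet, against 5.49, 4.31 and 2.76 CPM in WT (0.84, SE 0.25, unadjusted p = 0.0041). Kdr, the VEGF receptor, was at 25.6, 23.6 and 21.7 CPM on control diet and at 17.7, 14.2 and 7.69 CPM in WT (0.84, SE 0.32, unadjusted p = 0.018). In M libraries Sox18 and Kdr differed by 0.23 and 0.56 (edgeR unadjusted p = 0.37 and 0.096). In F libraries Kdr was the 1 member of the 10-gene endothelial list at an unadjusted p under 0.05, and the list's median was 0.40. WT F replicate 3 had the lowest mean level of that list among the 18 libraries. Of 9 erythroid genes 8 were higher (median 1.29), with 1 at an unadjusted p under 0.05. Alas2, the first enzyme of haem synthesis in red cells, was at 3.1, 2.48 and 0.429 CPM on control diet, against 0.488, 0.373 and 0.397 CPM in WT, so that control diet replicate 3 stood with WT (2.25, SE 0.84, unadjusted p = 0.018). In M libraries 6 of the 9 were higher at that p (1.9% of all genes), with a median of 2.31.

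In the surface epithelium, transport genes were lower on average. Of 23 absorptive colonocyte genes 19 had a lower mean on control diet (median -0.31, or -0.53 without control diet replicate 1), 5 had no overlap and 1 had an unadjusted p under 0.05. That gene was Slc26a3 (ENSMUSG00000001225), the chloride and bicarbonate exchanger of colonocytes, at 152, 355 and 683 CPM on control diet and at 1420, 1530 and 729 CPM in WT (-1.63, SE 0.66, unadjusted p = 0.025). Control diet replicate 3 was close to WT replicate 3, and without control diet replicate 1 the difference was -1.24 (unadjusted p = 0.095). Car4, a membrane carbonic anhydrase, was at 348, 552 and 621 CPM on control diet, against 898, 1400 and 847 CPM in WT (-1.05, SE 0.55, unadjusted p = 0.075). The mean log2 CPM of the colonocyte list was 7.37, 7.73 and 7.54 on control diet, against 8.39, 8.04 and 8.15 in WT. Its sum overlapped, at 32200, 17100 and 12800 CPM against 31100, 21000 and 23300 CPM, with control diet replicate 1 the highest. In M libraries the list's median was -0.14, with 10 of 23 higher. Goblet cell genes had a median of 0.48 over 15 genes, with 12 on the higher side, and tuft cell genes a median of 0.00 over 14, with 0 at an unadjusted p under 0.05 in both lists.

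Lists of metabolism and barrier showed small medians. Oxidative phosphorylation genes were lower on average for 21 of 22, with a median of -0.12 and 0 at an unadjusted p under 0.05. Fatty acid oxidation genes had a median of -0.08 over 22, xenobiotic metabolism -0.28 over 19, and claudins and tight junctions -0.01 over 15, with 0 at that p in each. Stress response genes had a median of 0.13 over 20 and immediate early genes -0.11 over 17, with 1 gene at that p in each.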

How the data were processed

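The authors deposited whole-number read counts per gene, without normalization, for the 18 libraries of the Apc table. Per the labels, Trizol RNA was selected for poly(A) on oligo(dT) beads, amplified by PCR and rolling circle, and sequenced on DNBSEQ. The submitters' processing notes name HISAT2, featureCounts (Subread), fastp, FastQC, SAMtools and the GRCm39 build, without versions. The table's header holds no command, so annotation and strand setting are not given in the sources used here. Of 55416 gene identifiers, 52083 were paired with a symbol.

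Counts were fitted with edgeR 4.0.16 in R 4.3.3 (filterByExpr, TMM factors, quasi-likelihood F test, 6 group means of 18 libraries), which tested 21624 genes. The contrasts were control diet F minus WT F, control diet M minus WT M, and their difference. Tests were two-sided, and adjusted p is Benjamini-Hochberg over all genes tested. CPM used effective library sizes, and list levels are means of log2 CPM with a prior count of 1. Column names matched the titles, and 0 columns were left unmapped. The fit was tested on simulated counts with 200 changed genes in 5 draws. It called 5.4 unchanged genes a draw.

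The comparison, its 43 gene lists and the rules were chosen with earlier results of these data known. Genes were named by smallest p, 10 in each direction and 5 for the F minus M difference, among those whose mean log2 CPM was at least 1. Predicted genes, pseudogenes, ribosomal genes and antigen receptor segments were left out. Up to 3 members per list by p and a fixed set around Apc were added. Alternatives were DESeq2 1.42.0, limma-voom (limma 3.58.1), RLE factors, other count filters, a replicate block, covariates, the 6 libraries alone, and leaving out each library. The covariates for proximal colon and for neuron and glia genes were chosen after seeing the data. Promoter windows came from RefSeq (GRCm38.p6). The counts refer to GRCm39, so no gene coordinates are given. A few genes of the lists and of the naming rule are not reported here by name; they stay in the counts, sums and medians.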

Additional observations from a re-analysis of the deposited data

Results flagged for a closer look

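In 4 named genes of cholesterol synthesis and uptake, every control diet library lay above every WT library in the F code and below every WT library in the M code, the opposite order. The difference of the differences (F minus M, log2) was 2.39 for Lss, 2.19 for Hmgcs1, 2.09 for Fdft1 and 1.54 for Hsd17b7. By edgeR none of the 4 passed the adjusted threshold for it (unadjusted p between 0.00012 and 0.0036, adjusted p = 1), and DESeq2 called Lss and Fdft1 (adjusted p = 0.012 and 0.047). Such opposite separation in both codes, in either order, was found in 36 of 21624 genes (0.166%). Hmgcs1 and Hsd17b7 were picked after their values were seen.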

How the results depend on the processing

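A part of the named genes, 61 of them, was followed through 17 alternative fits, and 55 of these kept their direction in all. For the remaining named genes, some of them close to level, this is not given. Of the 6 others Myh11 differed by -0.52 and the rest by less than the SE. Leaving out 1 library at a time moved Apc between -0.13 and 0.15, Ctnnb1 between -0.11 and 0.06, Lgr5 between -0.23 and 0.16, Mki67 between -0.25 and 0.34, and Xist between -0.08 and 0.19. With the smooth muscle covariate Ctnnb1 was 0.03, Lgr5 -0.09, Mki67 0.10 and Xist -0.03. With the neuron and glia covariate Ctnnb1 was 0.06 and Myh11 0.00. Mki67 was 0.02 in limma-voom.

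The count of 0 genes at an adjusted p under 0.05 held in all fits but DESeq2 (2 genes, and 7 for the F minus M difference). At an unadjusted p under 0.05, leaving out 1 library gave 184 to 429 higher and 349 to 675 lower genes, and the 6 libraries alone gave 660 higher. Among list members at that p, leaving out 1 library gave 7 to 15 neuron and glia, 0 to 1 smooth muscle, 1 to 5 cholesterol, 0 to 8 interferon, 1 to 7 macrophage and 0 to 2 Wnt target genes. List medians then ranged from -0.61 to -0.22 (smooth muscle) and from 0.30 to 0.62 (cholesterol). The 6 libraries alone gave 4, 11, 20, 10 and 1 genes for smooth muscle, cholesterol, interferon, macrophage and Wnt targets. Without a low-count filter there were 1 smooth muscle, 9 cholesterol and 13 interferon genes. DESeq2 gave 1 smooth muscle and 11 interferon genes, and limma-voom 1 interferon gene. The proximal colon covariate gave 1 smooth muscle and 12 interferon genes, and the smooth muscle covariate 15 interferon and 0 macrophage genes. The neuron and glia covariate gave 0 cholesterol, 17 interferon, 0 macrophage and 1 Wnt target genes, with medians of 0.00 (smooth muscle), -0.99 (Dbp-phase clock), 2.24 (interferon) and 0.33 (macrophage). Of all genes, the share higher at that p was 0.851% to 1.98% over the fits without 1 library (1.61% to 3.12% lower), 3.05% in the 6 libraries alone (3.06% lower), 1.29% without a low-count filter (1.78% lower), 1.89% in DESeq2 (3% lower) and 1.61% in limma-voom. It was 1.95% with the proximal colon covariate (2.98% lower), 1.4% with the smooth muscle covariate and 1.81% with the neuron and glia covariate (1.73% lower). The cause of these shifts was not tested.

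Same-numbered libraries of the 2 groups had correlations of their deviations of 0.14, 0.03 and -0.31. Differently numbered ones ranged from -0.33 to 0.34. So few values, taken from means of 3 libraries, cannot show whether the replicate numbers pair them. With a replicate block, interferon genes at that p numbered 2, with 1.36% of all genes higher. With the block in the 6 libraries alone there were 546 higher genes (2.52%, and 2.54% lower), 4 smooth muscle, 9 cholesterol, 23 interferon and 1 Wnt target genes, and Mki67 was 0.03. The block gave 0 genes at an adjusted p under 0.05. In the simulated counts 22.9% of doublings were recovered, and recovery by count level was not tested.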

Other observations

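Variable segments of immunoglobulin genes, a group chosen after its values were seen, stood higher on control diet for 141 of 191 tested, with a median log2 difference of 0.84. Their sums did not separate the groups, at 1230, 1230 and 3660 CPM on control diet and 1720, 1260 and 469 CPM in WT, with control diet replicate 3 alone above all WT libraries. At an unadjusted p under 0.05 edgeR counted 24 higher (12.6%) and 1 lower, and 0 passed the adjusted threshold. Igkv4-58, a kappa light chain segment, was at 48.2, 1.69 and 200 CPM in control diet libraries, against 0.423, 0.352 and 0.219 CPM in WT libraries. Control diet replicates 1 and 3 carried most of it, and its log2 difference was 7.95 (SE 1.84, edgeR unadjusted p = 0.00056; DESeq2 7.97, adjusted p = 0.00047). Segments resemble each other, so reads may be shared between them.

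Hepatocyte genes, mostly secreted plasma proteins, were higher on average on control diet for 10 of 12 (median 0.55), with 1 at an unadjusted p under 0.05, and in M libraries for 12 of 12 (median 1.31) with 9 at that p. Their sums stayed at 65.8 to 103 CPM in control diet F libraries and 96 to 131 CPM in WT F libraries, so the sum did not follow the median.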
